A study of Mus musculus with 6 samples.

Results

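The mitochondrial protein import translocases are the genes whose symbols begin with Timm or Tomm followed by a digit, with pseudogene symbols left out. This naming rule, which used no expression value, gave 26 of the 52459 rows of the count table. In the annotation 25 of them are protein coding and 1, Tomm6os, is an antisense RNA. Enough reads for testing were present for 22, and the other 4 (Timm8a2, Tomm20l, Tomm6 and Tomm6os) are described by their reads. RNA was sequenced from mouse liver tumours with genotype MYC-LAP-tTA. As background, in such mice a promoter active in liver cells drives a transactivator that tetracyclines block and that keeps a MYC transgene on. In the MYC_Off group (n = 3) MYC had been inactivated for 4 days, and in the MYC_On group (n = 3) it was active. Both groups carry the same genotype, so they differ in the state of the transgene and not in its presence. The labels do not say that the samples within a group are different animals, so the p-values describe the spread between these samples and that spread may be technical.

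Nearly all mitochondrial proteins are encoded in the nucleus and enter the organelle as precursors. The TOM complex of the outer membrane holds the general entry channel and its receptors. Precursors with a cleavable presequence pass on through the TIM23 complex of the inner membrane and are pulled into the matrix by a motor around the Hsp70 protein Hspa9. Multispanning carriers are escorted by the small TIM chaperones of the intermembrane space to the TIM22 complex, which inserts them into the inner membrane. In the liver this route supplies the respiratory chain and the mitochondrial enzymes of the urea cycle and fatty acid oxidation.

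Libraries held 16292718 to 19265623 reads assigned to genes. Levels are CPM, the reads of a gene scaled to a common library total after TMM adjustment, and each mean carries its SD. A log2 fold change below 0 means a lower level in MYC_Off than in MYC_On, and its standard error is given as SE. A gene is called when its p from the quasi-likelihood test of edgeR, adjusted by Benjamini-Hochberg over 14130 tested genes, is under 0.05. The Myc row stood at 74.8, 10.2 and 18.7 CPM in MYC_Off and at 779, 1018 and 854 CPM in MYC_On (log2 fold change -4.67, SE 0.80, adjusted p = 0.0035). MYC_Off replicate 1 stood above the other MYC_Off libraries, and with it left out the Myc change was -6.08 (adjusted p = 0.000206). Transgene and mouse reads cannot be told apart on that row.

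Most import translocase genes fell when MYC was inactivated. Of the 22 tested, 17 were called lower in MYC_Off, which is 77.3%, against 22.8% of all tested genes. None was called higher, against 29.9% of all tested genes, and 0 was higher at an unadjusted p under 0.05 in edgeR or at an adjusted p under 0.05 in DESeq2 or limma-voom. The median log2 fold change of the 22 genes was -1.08, against 0.18 over all tested genes, and single genes ran from -2.41 to 0.46. All 3 MYC_Off libraries lay below all 3 MYC_On libraries for 18 of the 22 genes, against 29.8% of tested genes. With a minimum change of 2-fold, 6 of the 22 fell, namely Tomm5, Timm50, Tomm40, Timm17a, Timm9 and Tomm20, against 10.1% of tested genes. Without the 7 members that share exons or near copies with another gene, 15 of 17 fell. The 5 genes Timm13, Timm21, Timm22, Timm8a1 and Timm8b were no longer called when at least 1 of the 6 libraries was left out, and the other 12 kept their call each time.

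**Figure D1:**
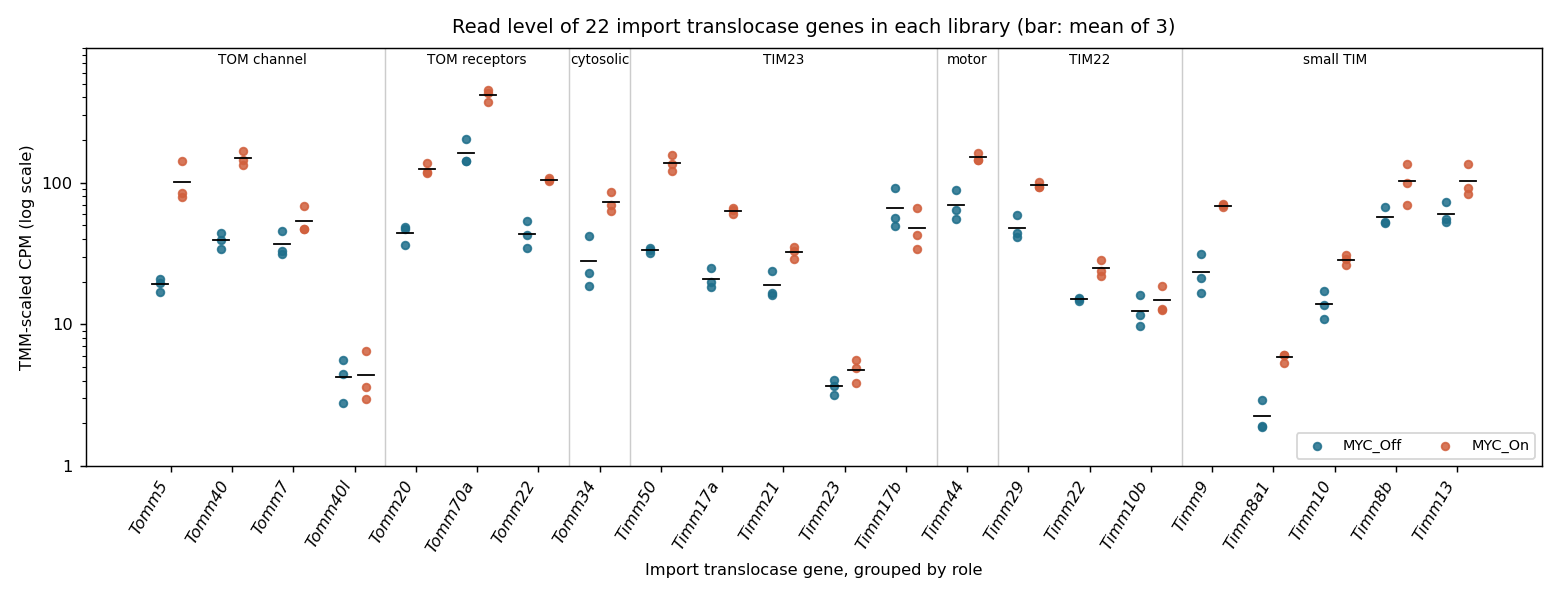
TMM-scaled CPM on a log axis for the 22 tested import translocase genes, grouped by role. Each point is 1 library, MYC_Off left of MYC_On, and black bars are means of 3. For 18 genes the MYC_Off points lie wholly below the MYC_On points, and for Timm17b, Tomm40l, Timm23 and Timm10b they overlap.

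The promoters of the family were read for the E-box, the short DNA word that MYC-MAX dimers bind. RefSeq promoter windows (GRCm38.p6, 250 bases before to 50 after each start) were found for 23 of the 26 members. The E-box CACGTG, which reads the same on both strands, lay in the windows of 6 of these 23 members (26.1%), against 8.09% of all 27025 genes with a window. Among tested genes the shares were 4 of 19 members (21.1%) and 11.5% of 10521 genes. It was present in 13.8% of tested genes called lower and in 10.8% of the other tested genes. The 4 tested members with an E-box (Tomm20, Timm9, Timm8a1 and Timm10) had log2 fold changes from -1.57 to -1.04 with a median of -1.44, and the 15 without it ran from -2.41 to 0.46 with a median of -1.12. Tested members without a window are in neither group, and all of them had log2 fold changes above -1.12. Tomm5, Timm50 and Tomm40, with the lowest log2 fold changes of the family, had no exact match in their windows, which says only that these 6 letters are not there. The other E-box members were Tomm20l and Tomm6os. In Timm10 and Tomm6os the match began after the start. The core of the site of NRF1, a general activator of nuclear genes for mitochondria, was searched as CGCATGCG, which also reads the same on both strands. It was found in 1 of the 23 members, Timm13 (4.35%), and in 2.07% of all genes. Among tested genes the shares were close, 1 of 19 members (5.26%) and 4.13% of 10521 genes. It lay in 5.58% of tested genes called lower and in 3.68% of the other tested genes. The 2 words do not overlap each other. No binding was measured here.

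The upstream stretches around these matches are shown for 4 called members, 5′ to 3′ along the gene's strand, with the matched word in capitals (an E-box in the first 3, the NRF1 core in the last).
Tomm20, chr8:126946002-126946087, minus strand: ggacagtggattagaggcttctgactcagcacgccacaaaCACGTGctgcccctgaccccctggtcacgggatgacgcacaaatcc
Timm9, chr12:71136688-71136773, minus strand: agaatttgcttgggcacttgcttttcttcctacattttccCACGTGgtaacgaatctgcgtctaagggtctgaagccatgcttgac
Timm8a1, chrX:134541861-134541920, minus strand: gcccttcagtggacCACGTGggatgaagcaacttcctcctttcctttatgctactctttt
Timm13, chr10:80901115-80901202, minus strand: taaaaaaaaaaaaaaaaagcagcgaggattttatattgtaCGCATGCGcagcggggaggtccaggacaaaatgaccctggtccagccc
Counted from the start, with bases before it negative, the word began at -126 in Tomm20, -58 in Timm9, -236 in Timm8a1 and -193 in Timm13. A second E-box began at -1 in Timm9 and at 25 in Timm8a1.

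**Figure D2:**
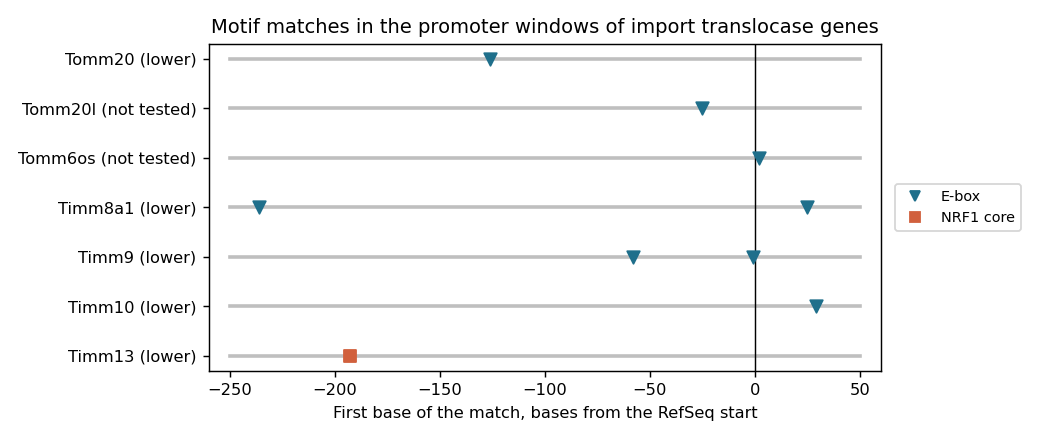
Positions of exact motif matches in the promoter windows of the 7 members that hold one, in bases from the RefSeq start (vertical line), with triangles for the E-box and a square for the NRF1 core. Grey lines span the 250 bases before and 50 bases after the start, and the label says whether the gene was called. Timm9 and Timm8a1 hold 2 E-boxes each.

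In the TOM channel, the pore gene fell together with a small subunit. Tomm40, the channel protein of the outer membrane (chromosome 7, 19701313 to 19715438, minus strand, mm10), stood at 33.9, 39.6 and 44.5 CPM in MYC_Off and at 134, 167 and 145 CPM in MYC_On. The highest MYC_Off library lay below the lowest MYC_On library, and the mean was 3.79-fold lower in MYC_Off (log2 fold change -1.92, SE 0.22, adjusted p = 0.000989, edgeR). Tomm5, a small subunit attached to the channel (chromosome 4, 45105208 to 45108114, minus strand), stood at 20.9, 19.7 and 16.9 CPM in MYC_Off and at 78.7, 84.4 and 142 CPM in MYC_On. It had the lowest log2 fold change of the family, -2.41 (SE 0.29, adjusted p = 0.0012), and MYC_On replicate 3 was its highest library. Tomm7, a small subunit known for regulating assembly of the complex (chromosome 5, 23838944 to 23844161, minus strand), stood at 33.2, 31.6 and 45.4 CPM in MYC_Off and at 46.9 to 68.3 CPM in MYC_On. The groups lay close without overlapping, and Tomm7 was not called (log2 fold change -0.56, SE 0.26, adjusted p = 0.105). It was called without MYC_Off replicate 3 (-0.83, adjusted p = 0.0424) and when only library size was used for scaling (-1.30, adjusted p = 0.00673). Library size without the 20 most abundant genes also gave a call (-0.95, adjusted p = 0.0252).

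The remaining members of the channel group are uncertain. Tomm40l, a relative of Tomm40 (chromosome 1, 171216011 to 171222514, minus strand), averaged 4.25 ± 1.40 CPM in MYC_Off and 4.37 ± 1.88 CPM in MYC_On (SD, n = 3 each), and was not called (log2 fold change -0.03, SE 0.48, adjusted p = 0.957). Its exons share 64.3% of their bases with Nr1i3 on the other strand, the gene of the nuclear receptor CAR, which rose (5.99, SE 0.81, adjusted p = 0.00163). Nr1i3 had 125, 365 and 230 reads in MYC_Off and 12, 3 and 3 in MYC_On. Tomm40l had 101, 58 and 36 reads in MYC_Off and 67, 88 and 132 in MYC_On. Without a stated strand setting it is not known how reads on the shared bases were assigned, so the level of Tomm40l is uncertain. Tomm6, another small subunit, had 6, 2 and 5 reads in MYC_Off and 10, 9 and 12 reads in MYC_On, and was not tested. A read-through gene on the same strand, Gm21981, covers 76.0% of its exon bases and had 0 to 3 reads per library, so the level of Tomm6 is uncertain. Tomm6os, transcribed across it in the other direction, had 7, 4 and 2 reads in MYC_Off and 7, 11 and 14 reads in MYC_On.

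All 3 tested TOM receptors fell. Tomm20, the receptor that binds presequences (chromosome 8, 126930667 to 126945844, minus strand), stood at 36.2, 47.2 and 48.5 CPM in MYC_Off and at 118, 118 and 138 CPM in MYC_On (log2 fold change -1.50, SE 0.22, adjusted p = 0.00187, edgeR). Tomm22, the central receptor that also holds the complex together (chromosome 15, 79670861 to 79673400, plus strand), stood at 42.7, 34.6 and 53.4 CPM in MYC_Off and at 104, 102 and 108 CPM in MYC_On (-1.26, SE 0.22, adjusted p = 0.00381). Tomm70a, the receptor for carrier precursors brought by cytosolic chaperones (chromosome 16, 57121703 to 57156705, plus strand), averaged 163 ± 35.2 CPM in MYC_Off and 418 ± 42.8 CPM in MYC_On (-1.36, SE 0.28, adjusted p = 0.00678). None of the 3 overlapped between groups. Tomm20l, a relative of Tomm20, had 1 read over the MYC_Off libraries and 0 over the MYC_On libraries, so it was not detectable at this depth beyond that read. Tomm34, a cytosolic co-chaperone and not a membrane subunit despite its name (chromosome 2, 164053540 to 164071169, minus strand), stood at 42.1, 18.5 and 23.1 CPM in MYC_Off and at 69.2, 85.7 and 63.6 CPM in MYC_On. It fell (-1.38, SE 0.34, adjusted p = 0.013), and MYC_Off replicate 1, which had the most Myc reads of its group, was its highest MYC_Off library.

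**Figure D3:**
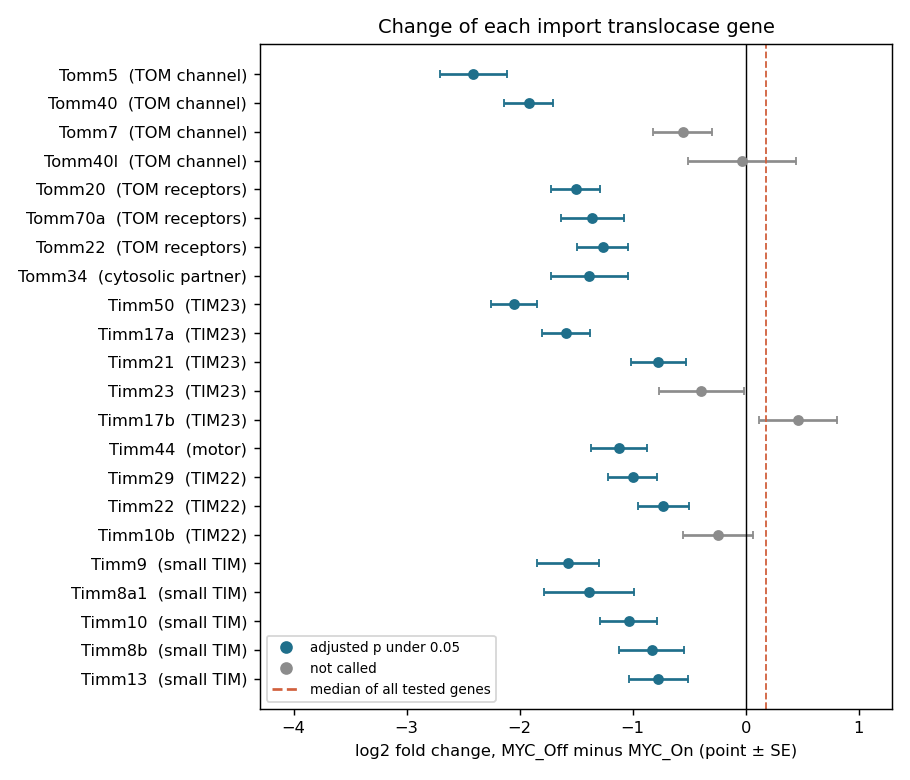
Log2 fold change (MYC_Off minus MYC_On) of the 22 tested genes with SE bars, listed by role. Blue points are called at an adjusted p under 0.05 and grey ones are not, and the dashed line is the median of all tested genes, 0.18. The 17 called genes all lie left of zero, with Tomm5 at -2.41, and Timm17b at 0.46 is the only point to the right.

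In the TIM23 complex 3 of 5 tested genes fell. Timm50, the receptor that takes over presequences in the intermembrane space (chromosome 7, 28305516 to 28312072, minus strand), stood at 33.4, 34.7 and 32.0 CPM in MYC_Off and at 122, 135 and 158 CPM in MYC_On. It was 4.14-fold lower in MYC_Off (log2 fold change -2.05, SE 0.21, adjusted p = 0.000873, edgeR), with the smallest adjusted p of the family. Timm17a, a core subunit of the translocation channel (chromosome 1, 135295213 to 135313778, minus strand), stood at 24.8, 18.2 and 20.05 CPM in MYC_Off and at 65.9, 64.2 and 59.9 CPM in MYC_On (-1.59, SE 0.21, adjusted p = 0.00154). Its alternative, Timm17b (chromosome X, 7899357 to 7908351, plus strand), stood at 49.3, 56.6 and 92.0 CPM in MYC_Off and at 42.7, 34.3 and 66.7 CPM in MYC_On. These values overlapped and Timm17b was not called (0.46, SE 0.35, adjusted p = 0.29). With library size only its log2 fold change was -0.30. Timm21, which links the complex to TOM and to the respiratory chain (chromosome 18, 84946191 to 84951524, minus strand), averaged 18.9 ± 4.22 CPM in MYC_Off and 32.2 ± 3.25 CPM in MYC_On (-0.77, SE 0.24, adjusted p = 0.0306). It was not called when MYC_On replicate 1, 2 or 3 was left out (adjusted p = 0.0622, 0.0717 and 0.0884 in that order).

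Timm23, the other core subunit of the channel (chromosome 14, 32180162 to 32201898, minus strand), had only 48 to 58 reads per library in MYC_Off and 94 to 114 in MYC_On, and was not called (-0.39, SE 0.38, adjusted p = 0.405). Gm10273 on chromosome 10, annotated as protein coding, matches 95.6% of its transcript at 99.9% identity, and had 0 reads in every library. A further 4 processed pseudogenes match between 52.9% and 53.5% of the transcript, at 95.4% to 100% identity. Of these, Gm10171 and Gm10233, both at 100% identity, also had 0 reads in every library. The level of Timm23 is therefore uncertain, since how reads with several matches were counted is not stated. Timm44, the peripheral subunit that ties Hspa9 to the exit of the channel (chromosome 8, 4259731 to 4275913, minus strand), stood at 55.1, 63.8 and 88.7 CPM in MYC_Off and at 144, 145 and 163 CPM in MYC_On. It fell without overlap between groups (-1.12, SE 0.25, adjusted p = 0.00827).

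Within each library the reads of the Timm17 pair were set against each other, a ratio that no scaling between libraries can alter. Timm17a had 0.503, 0.323 and 0.219 times the reads of Timm17b in MYC_Off and 1.54, 1.87 and 0.897 times in MYC_On. The groups did not overlap, and the log2 ratio (1 read added to each gene) averaged -1.61 ± 0.60 in MYC_Off and 0.46 ± 0.55 in MYC_On (SD, n = 3 each). The difference was -2.06, with an exact two-sided permutation p of 0.1, the smallest that 3 libraries against 3 allow. The ratio counts reads and takes no account of length, with merged exons of 7893 bases for Timm17a and 2557 for Timm17b. Divided by these lengths, which merge every annotated isoform, Timm17b stood above Timm17a in both groups. In MYC_Off Timm17b and Timm17a had 25.8 ± 8.94 and 2.66 ± 0.43 CPM per kilobase, and in MYC_On 18.7 ± 6.59 and 8.02 ± 0.39. Undivided, the MYC_On order was the reverse, with 47.9 ± 16.8 CPM for Timm17b and 63.3 ± 3.10 for Timm17a. Which form is more abundant in MYC_On therefore depends on the lengths used. For Tomm40 over Tomm40l the read ratios were 6.06, 8.78 and 15.7 in MYC_Off and 44.4, 45.9 and 22.1 in MYC_On. This log2 ratio differed by -1.92 (exact two-sided permutation p = 0.1), subject to the shared exons of Tomm40l and Nr1i3 given above. Only these 2 pairs were compared, and both p-values are 0.1 after Benjamini-Hochberg adjustment as well.

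**Figure D4:**
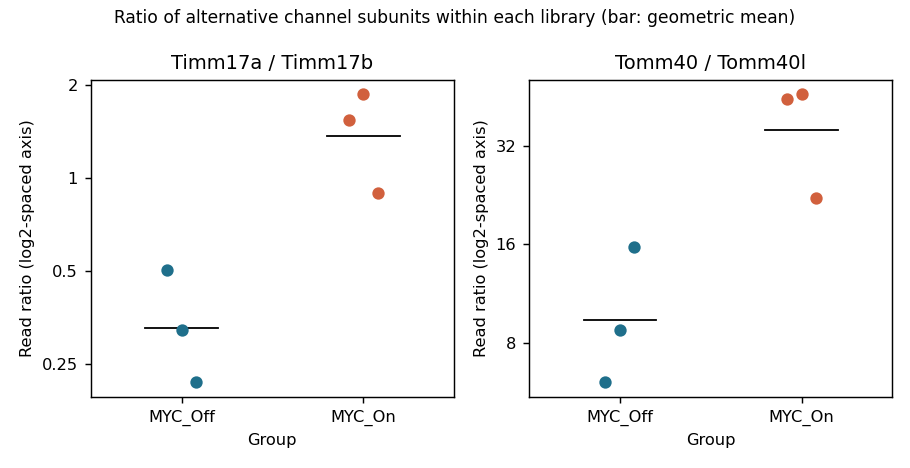
Read ratio within each library for the alternative channel subunits Timm17a and Timm17b and for Tomm40 and Tomm40l, on log2-spaced axes. Points are libraries, MYC_Off left of MYC_On, and bars are geometric means. The ratios are of reads and are not adjusted for gene length. The Timm17a to Timm17b ratio ran from 0.219 to 0.503 in MYC_Off and from 0.897 to 1.87 in MYC_On.

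In the TIM22 complex, 2 of 3 genes fell. Timm29, a subunit known from human cells that stabilises the complex and contacts TOM (chromosome 9, 21592722 to 21595970, plus strand), stood at 41.2, 58.7 and 44.2 CPM in MYC_Off and at 93.6, 102 and 92.7 CPM in MYC_On. Its log2 fold change was -0.998 (SE 0.22, adjusted p = 0.00772, edgeR), without overlap between groups. Timm22, the channel protein itself (chromosome 11, 76406952 to 76416292, plus strand), averaged 15.0 ± 0.389 CPM in MYC_Off and 24.8 ± 3.41 CPM in MYC_On (-0.73, SE 0.22, adjusted p = 0.0292). Leaving out MYC_Off replicate 2 ended the call (adjusted p = 0.053), as did leaving out MYC_On replicate 1, 2 or 3 (adjusted p = 0.0611, 0.0576 and 0.0952). Timm10b, the small TIM protein that docks the chaperones on Timm22 (chromosome 7, 105640056 to 105643637, plus strand), averaged 12.5 ± 3.23 CPM in MYC_Off and 14.8 ± 3.45 CPM in MYC_On, with overlapping libraries (-0.24, SE 0.31, adjusted p = 0.535). Under library-size scaling it was called lower (-0.98, adjusted p = 0.0459). It shares 10.5% of its exon bases with Gm45799 on the same strand, and its level is uncertain to that extent.

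All 5 tested small TIM chaperones of the intermembrane space fell, some by little. Timm9 and Timm10 form the main ring that carries hydrophobic precursors. Timm9 (chromosome 12, 71123173 to 71136684, minus strand) stood at 16.8, 31.6 and 21.3 CPM in MYC_Off and at 70.4, 67.1 and 69.2 CPM in MYC_On (log2 fold change -1.57, SE 0.27, adjusted p = 0.00364, edgeR). Timm10 (chromosome 2, 84826997 to 84830213, plus strand) stood at 10.9, 17.2 and 13.7 CPM in MYC_Off and at 26.3, 28.8 and 30.8 CPM in MYC_On (-1.04, SE 0.25, adjusted p = 0.0122). Both separated fully between groups, and MYC_Off replicate 2 was the highest MYC_Off library of each.

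Timm8a1, Timm8b and Timm13 belong to the second set of rings, Timm8a1 being the mouse counterpart of the gene mutated in human deafness-dystonia syndrome. Timm8a1 (chromosome X, 134537256 to 134541865, minus strand) averaged 2.23 ± 0.586 CPM in MYC_Off and 5.83 ± 0.443 CPM in MYC_On (-1.38, SE 0.40, adjusted p = 0.0219). It had 34, 38 and 25 reads in MYC_Off and 136, 130 and 124 reads in MYC_On. A transcribed pseudogene, Gm9797, matches 43.1% of its transcript at full identity and had 0 or 1 read per library. The level of Timm8a1 is uncertain to that extent. Timm8b (chromosome 9, 50603910 to 50605320, plus strand) stood at 51.6, 67.9 and 52.8 CPM in MYC_Off and at 100, 69.9 and 136 CPM in MYC_On, so that MYC_On replicate 2 came close to the highest MYC_Off library. Its change was -0.83 (SE 0.29, adjusted p = 0.0433), and leaving out MYC_Off replicate 3 (adjusted p = 0.0651) or MYC_On replicate 1 or 3 (0.0921 and 0.125) ended the call. Of its exon bases 15.6% are shared with Nkapd1 on the other strand. Timm13 (chromosome 10, 80899450 to 80900969, minus strand) averaged 60.4 ± 11.0 CPM in MYC_Off and 103 ± 27.8 CPM in MYC_On (-0.77, SE 0.26, adjusted p = 0.0414), and was not called when MYC_Off replicate 3 (0.0564) or MYC_On replicate 1, 2 or 3 (0.0538, 0.0666 and 0.12) was left out. Timm8a1 had adjusted p = 0.0822, 0.0569 and 0.074 when MYC_On replicate 1, 2 or 3 was left out. Timm8a2, a relative of Timm8a1, had no reads in MYC_Off and 1, 1 and 4 reads in MYC_On.

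Levels were compared between genes per kilobase of merged exons. In MYC_On the order began with Timm8b at 197 ± 64.0 CPM per kilobase, Tomm5 at 117 ± 40.6, Timm13 at 75.2 ± 20.3 and Tomm22 at 63.4 ± 1.69 (SD, n = 3). In MYC_Off it began with Timm8b at 111 ± 17.5, Timm13 at 44.1 ± 7.995, Tomm7 at 32.6 ± 6.71 and Tomm22 at 26.4 ± 5.71 CPM per kilobase. The intervals of mean ± SD overlapped for each pair of neighbours among these 4 genes in MYC_On. In MYC_Off they overlapped for Timm13 and Tomm7 and for Tomm7 and Tomm22, and Timm8b lay apart from Timm13. Tomm5 stood 6th in MYC_Off and 2nd in MYC_On, Timm50 11th and 5th, and Timm17b 5th and 14th. Merged exons include every annotated isoform, so genes with long alternative ends, such as Timm17a at 7893 bases, come out low on this scale.

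Among other genes of the import pathway, those that fell included the oxidoreductase of the intermembrane space and the matrix chaperonin. Of 27 listed genes, all tested, 9 fell (33.3%, against 22.8% of all tested genes) and none was called higher in edgeR, DESeq2 or limma-voom or at an unadjusted p under 0.05 in edgeR, with a median log2 fold change of -0.35. Chchd4, the oxidoreductase that folds the small TIM proteins, averaged 17.2 ± 3.06 CPM in MYC_Off and 97.2 ± 12.3 CPM in MYC_On (-2.49, SE 0.24, adjusted p = 0.000839). Its partner Gfer was not called (-0.35, adjusted p = 0.249). Scaling by library size only, or without the 20 most abundant genes, called Gfer lower (adjusted p = 0.0107 and 0.0386). Both genes of the matrix chaperonin fell, Hspd1 (log2 fold change -2.50, SE 0.34, adjusted p = 0.00157) and Hspe1 (-1.49, SE 0.30, adjusted p = 0.0059). Among 7 presequence-processing genes 3 fell, including Pmpca, a subunit of the processing peptidase (-1.62, adjusted p = 0.0022), and Pitrm1, which degrades the cut presequences (-1.66, adjusted p = 0.00223).

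Of 7 genes of the matrix motor only Hspa9 fell, with 582 ± 185 CPM in MYC_Off and 1322 ± 37.9 CPM in MYC_On (-1.18, SE 0.36, adjusted p = 0.0276), and it was not called when MYC_On replicate 1, 2 or 3 was left out (adjusted p = 0.0923, 0.0704 and 0.0784). Dnlz, which protects Hspa9 from aggregation, was not called (-0.47, adjusted p = 0.0876), although DESeq2 called it lower (adjusted p = 0.0202). Scaling by library size only, or without the 20 most abundant genes, also called Dnlz lower (adjusted p = 0.00739 and 0.0169). In outer membrane assembly Mtx1 fell (-0.57, adjusted p = 0.0474) and Mtx3 was not called (-0.79, adjusted p = 0.125), and for insertion into the inner membrane Oxa1l fell (-0.62, adjusted p = 0.0371) and Cox18 was not called (0.21, adjusted p = 0.624). With MYC_On replicate 1, 2 or 3 left out, neither Mtx1 (adjusted p = 0.101, 0.0785 and 0.109) nor Oxa1l (0.105, 0.0769 and 0.0874) was called, and Oxa1l was not called with MYC_Off replicate 2 left out (0.0509). Mtx3 was called with that library left out (-1.35, adjusted p = 0.0157). The same 2 scalings that called Dnlz lower also called Mtx3 lower (adjusted p = 0.0116 and 0.0232). Scaled by library size alone, 20 of the 27 pathway genes fell, while the share of all tested genes called lower was 37.6% and their median log2 fold change -0.57.

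Other mitochondrial families were set beside the translocases. Among mitochondrial ribosomal proteins (Mrpl and Mrps symbols) 46 of 77 tested genes fell (59.7%) and 0 was called higher, with 1 higher at an unadjusted p under 0.05, and the median log2 fold change was -0.93. Among 78 tested respiratory chain subunits 2 fell (2.56%) and 4 rose, with a median of 0.10. Differences between families were not tested. Of 12 genes listed for mitochondrial content, 5 fell, 1 rose and 6 were not called. Tfam, which packages mitochondrial DNA, averaged 50.2 ± 6.85 CPM in MYC_Off and 151 ± 9.42 CPM in MYC_On (-1.58, SE 0.21, adjusted p = 0.0015), and the outer membrane pore gene Vdac1 changed by -1.36 (SE 0.28, adjusted p = 0.00625). Its relative Vdac2 also fell (-1.08, adjusted p = 0.00737), but Vdac3 was not called (-0.07, adjusted p = 0.839). Ppargc1a, a coactivator that raises mitochondrial gene expression in fasting liver, rose (4.01, SE 0.80, adjusted p = 0.00598).

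**Figure D5:**
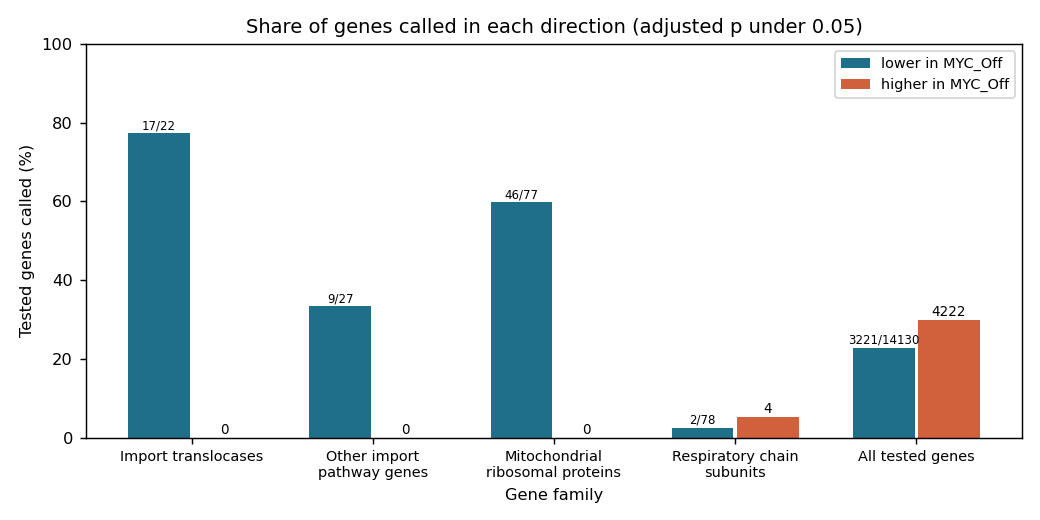
Percent of tested genes called lower (blue) or higher (orange) in MYC_Off for import translocases, the other genes of the import pathway, mitochondrial ribosomal proteins, respiratory chain subunits and all tested genes. Numbers above bars are genes called and, for lower calls, genes tested. The lower share is 77.3% for the translocases and 2.56% for respiratory chain subunits.

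Several members lie head to head with another gene. With starts no more than 1000 bases apart on opposite strands, 8 of 25 protein-coding members (32%) had a protein-coding neighbour, against 10.9% of 21924 protein-coding genes. Sdhd, a respiratory chain subunit whose start lies 98 bases from that of Timm8b, was not called (log2 fold change -0.76, SE 0.32, adjusted p = 0.0803). Pqbp1, 88 bases from Timm17b, was also not called (-0.21, adjusted p = 0.374), like Timm17b itself. Arfip2, 360 bases from Timm10b, fell (-1.84, SE 0.23, adjusted p = 0.00134) while Timm10b was not called. Arfip2 and Timm10b share 7.73% of the exon bases of Timm10b on opposite strands. Parg, 51 bases from Timm23, fell (-1.04, SE 0.25, adjusted p = 0.0116), and 2700049A03Rik, 164 bases from Timm9, fell as well (-1.90, SE 0.33, adjusted p = 0.00367). Yipf2, 106 bases from Timm29, was not called (0.32, adjusted p = 0.438), nor were Stk4, 847 bases from Tomm34 (-0.24, adjusted p = 0.581), and Frs3, 644 bases from Tomm6 (0.90, adjusted p = 0.123). Yipf2 and Timm29 also overlap, sharing 3.4% of the exon bases of Timm29 on opposite strands.

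The libraries of a group did not rank alike for all members. Summed over the 26 rows, the family took 742, 876 and 852 CPM in MYC_Off and 1805, 1796 and 2133 CPM in MYC_On. The median of the 22 tested genes relative to the MYC_On mean was -1.25, -0.88 and -1.02 in the MYC_Off libraries. MYC_Off replicate 1, with the most Myc reads of its group, held the lowest MYC_Off value of 12 of the 22 genes, and MYC_On replicate 3 held the highest MYC_On value of 17. MYC_Off replicate 1 also differed from its group in the cell type markers described next.

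These are whole tumour samples, in which fewer cells of a type and less RNA per cell cannot be told apart. Of the hepatocyte markers 8 of 8 rose, with a summed level of 104381 to 272027 CPM in MYC_Off and 3393 to 7425 CPM in MYC_On. This sum was the highest of the marker lists in each group. All hepatocyte markers had reads in both groups, but so did those of every other list, so that presence alone does not identify the tissue. All 6 cell division markers fell, their sum being 67.1 to 132 CPM in MYC_Off and 964 to 1256 CPM in MYC_On. Markers of other cells were higher, with 6 of 6 macrophage markers (1591 to 5611 CPM in MYC_Off, 415 to 806 in MYC_On), 6 of 6 stellate and fibroblast markers (965 to 2076 and 130 to 140) and 4 of 5 endothelial markers (224 to 530 and 49.0 to 55.9). Also higher were 4 of 5 T cell markers (26.5 to 142 CPM in MYC_Off and 5.30 to 9.47 in MYC_On), 3 of 4 neutrophil markers (98.5 to 150 and 0.573 to 1.83), and 1 of 4 B cell markers (1.54 to 41.6 and 0.395 to 0.891). Of 4 cholangiocyte markers 1 was higher and 1 lower, with sums of 23.9 to 62.8 CPM in MYC_Off and 37.4 to 88.5 CPM in MYC_On. All 4 erythroid markers rose (619 to 2244 and 30.9 to 88.5). Within MYC_Off, replicate 1 held the lowest hepatocyte sum. It also held the highest sum of every other list except the neutrophil list, where replicate 3 was highest. No marker was at 0 in all libraries of a group, and the part of cell makeup in the changes of the translocase genes was not tested.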

How the data were processed

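RNA of 6 liver tumour samples was sequenced, and the authors deposited whole-number read counts per gene symbol, with no normalization. Per the submitters' processing notes, Trimmomatic, STAR, Picard, featureCounts and DESeq2 were used with the mm10 build. Their versions, the annotation, the strand setting and how multimapping reads were handled: not given in the sources used here.

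Titles gave the group and replicate of each sample. A column was matched to the sample whose description is the column name without the digit after its first letter. The test was the quasi-likelihood F test of edgeR 4.0.16 (R 4.3.3), robust, after TMM scaling and filterByExpr with min.count 10 and min.total.count 15. P-values were Benjamini-Hochberg adjusted over all tested genes, and SE is the log2 fold change divided by the root of F. DESeq2 1.42.0 and limma 3.58.1 (voom) were alternatives. The test was checked on simulated counts in which a small share of genes changed, equally in both directions. Each changed by more than the median of the translocases. The check therefore does not cover smaller changes or changes in a large share of genes. No 2 libraries of a group agreed within sampling noise (lowest chi-square over its degrees of freedom 32.1).

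Positions, merged exons, overlaps and neighbours are from GENCODE mouse release M21 (mm10). Near copies were annotated transcripts with at least 95% identity over at least 30% of the longest transcript of a member (blastn 2.17.0), and shared exons meant at least 10% of exon bases. Figures used matplotlib 3.10.9.

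All members were described, with Myc, and from each sublist of other pathway genes up to 2 with the smallest adjusted p. Neighbours were named after their values were seen, as were the content genes. The members, lists and tests were chosen with earlier results of these data known.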

Additional observations from a re-analysis of the deposited data

How the results depend on the processing

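Of the 17 lower import translocase genes, 12 kept their call in each of 14 alternative fits at an adjusted p of 0.05. The count was 10 at an adjusted p of 0.01 (13.4% of all tested genes), 6 against a 2-fold change with glmTreat (10.1%), 12 with a replicate block (18.5%) and 12 to 17 without 1 library (15.7% to 26.2%). No alternative called a member higher. Scaling moved the level of all changes: scaled by library size only, the median of all tested genes was -0.57 (0.18 with TMM) and that of the translocases -1.85, and with the 20 most abundant genes kept out of the library size they were -0.22 and -1.50. These scalings called 19 and 18 translocases lower, against 37.6% and 30.2% of all tested genes. Relative to all genes the translocase median was -1.26 with TMM and -1.28 with library size only. The other pathway genes that fell numbered 20 under the first of these scalings, 15 under the other, 4 against a 2-fold change and 6 to 10 without 1 library. Signs of uncalled genes turned. Timm17b was -0.30 with library size only. Cox18 was -0.59 and -0.23 under the 2 scalings and -0.11 to 0.32 without 1 library. Tomm40l was 0.0010 with the 1 CPM filter, 0.035 with limma-voom, 0.0049 with the replicate block and -0.42 to 0.31 without 1 library. Leaving out 1 library gave -2.37 to -1.77 for the Timm17a to Timm17b log2 ratio and -2.29 to -1.60 for Tomm40 to Tomm40l.

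The labels do not say that replicate numbers pair the samples. Same-numbered libraries had correlations of -0.26, -0.17 and 0.04 between their deviations from the group means. With 3 libraries per group these values cannot show whether samples were paired. The block gave 12 called members, against 17 without it. The count without members that share reads and the block for the ratios were added after seeing the data. For these changes the cause was not tested. Depth limits Timm8a2, Tomm20l, Tomm6 and Tomm6os, with at most 14 reads per library.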
